A study of Mus musculus with 48 samples.

Results

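The mitochondrial respiratory chain and the ATP synthase are built from subunits encoded mostly in the nucleus, and 85 of these subunit genes were followed in cultured mouse Kupffer cells and monocytic macrophages. They are every gene on the array whose symbol begins with Ndufa, Ndufb, Ndufc, Ndufs, Ndufv, Sdh, Uqcr, Cox4 to Cox8 or Atp5, out of 19505 genes with a symbol. The rule used names only and no measured value, and it left out 12 assembly factors named Ndufaf or Sdhaf. By complex, 36 genes belong to complex I, 4 to complex II, 8 to complex III, 20 to complex IV and 17 to complex V, with Ndufa4 and Ndufa4l2 counted in complex IV. Each of them is read by 1 probe set. Some have near-identical relatives, such as Ndufb4 and Ndufb4b or the 3 Atp5g genes, and whether the probes tell these apart was not tested.

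Electrons from NADH enter the chain at complex I and electrons from succinate at complex II. Both pass to ubiquinone, then through complex III and cytochrome c to complex IV, where oxygen is reduced. Complexes I, III and IV pump protons across the inner membrane, and the ATP synthase, complex V, makes ATP as the protons return. In macrophages, respiration supports phagocytic and repair functions, whereas inflammatory activation is known to shift ATP production toward glycolysis.

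The study took macrophages of 2 origins from the same male BALB/c mice: Kupffer cells, which reside in liver sinusoids, sorted with F4/80, and blood monocytes sorted with CD115. After 1 day in MCSF, a macrophage growth factor, each kind was kept for 1 or 3 more days with HGF, with Ito cells (hepatic stellate cells) or with CD146 cells (sinusoidal endothelial cells), or stayed in MCSF as the control. The 16 groups hold 3 arrays each, numbered as biological replicates. All groups share the first day in MCSF, and the labels do not say whether MCSF stayed beside an addition, whether added cells were kept apart or removed before lysis, or whether replicates came from separate cultures or animals. The p-values therefore measure the spread between these samples only.

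Values are deposited log2 signals, so a log2 difference of 1 is a 2-fold difference in signal. A gene is called higher or lower in a comparison where its adjusted p is under 0.05 in a limma fit over all 48 arrays and all genes. The labels do not say whether RNA came from all cells of a culture. Fewer cells of a type and less RNA per cell cannot be told apart. Macrophage marker genes averaged between 14.08 and 16.82 on every Kupffer array and between 15.13 and 16.12 on every monocytic array, against 5.07 to 6.15 for the negative control probes.

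3 arrays stood apart from their groups. Replicate 1 of the Kupffer MCSF group at 1 day had a subunit mean of 9.29, against 10.70 and 10.47 on the other 2, and B cell markers at 4.03, against 9.94 and 10.62. Replicate 2 of the Kupffer HGF group at 1 day had a subunit mean of 9.58, against 10.74 and 10.42, and its positive control probes lay 2.83 above the negative ones, against 4.24 and 3.83. Replicate 3 of the monocytic MCSF group at 3 days had a subunit mean of 11.16, against 10.43 and 10.63, and 9 cell cycle genes averaged 12.03 on it, against 7.17 and 7.49 on the other 2. Counts of subunits are given for all arrays and then without these 3, and counts over markers and pathways are for all arrays, with the values without the 3 beside those that moved most. The subunit mean is itself the quantity compared, so counts without the 3 arrays are no independent check. Over all genes, that monocytic array had a mean correlation of 0.9774 with its own group, the lowest of the monocytic arrays. Some kept Kupffer arrays at 1 day were lower, such as replicate 1 with HGF at 0.9621 and replicate 3 in MCSF at 0.9709.

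In signal not corrected for the level of the array, the subunit mean at 3 days stood above its 1-day value in every Kupffer condition. The same held in monocytic macrophages with HGF and with Ito cells. In Kupffer cells at 3 days the mean of the 85 genes was 11.37 ± 0.23 with HGF, 11.37 ± 0.07 with Ito cells, 10.98 ± 0.13 with CD146 cells and 11.23 ± 0.09 in MCSF (SD, n = 3). At 1 day the Kupffer means were 10.25 ± 0.60, 10.36 ± 0.09, 10.49 ± 0.10 and 10.15 ± 0.76 in the same order. Every Kupffer array at 3 days thus lay above every Kupffer array at 1 day, in signal not corrected for the level of the array. With the median of all genes on each array subtracted, this separation was lost. Kupffer arrays with CD146 cells at 3 days then lay at 5.57 to 5.84. At 1 day those with HGF lay at 4.56 to 5.88 and those with Ito cells at 5.53 to 5.75. Between the times of the same Kupffer condition only HGF then overlapped, with 5.82 to 6.31 at 3 days.

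In monocytic macrophages at 3 days the mean was 11.37 ± 0.33 with HGF, 11.16 ± 0.03 with Ito cells, 10.50 ± 0.06 with CD146 cells and 10.74 ± 0.38 in MCSF. At 1 day the 4 monocytic means lay between 10.26 and 10.57. Without correction for the level of the array, HGF and Ito arrays at 3 days lay above 1-day arrays of the same addition. The CD146 arrays at 3 days overlapped theirs, and so did the MCSF arrays. Of these MCSF arrays replicate 3 at 11.16 was the highest. The other 2 read 10.43 and 10.63, against 10.43 to 10.61 at 1 day. With the median of all genes on each array subtracted, the HGF and Ito arrays at 3 days overlapped their 1-day arrays. The CD146 arrays at 3 days then lay below those at 1 day.

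**Figure D1:**
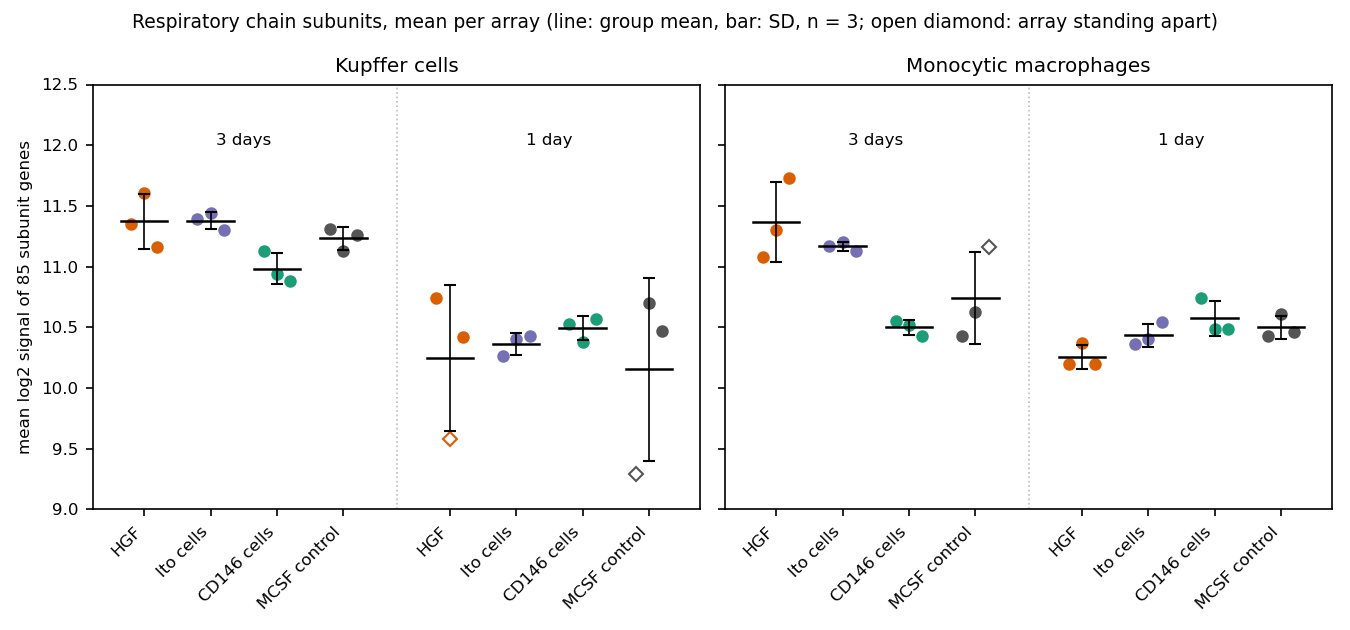
Mean log2 signal of the 85 subunit genes on each array, by addition and time, with Kupffer cells on the left and monocytic macrophages on the right. Lines are group means, bars are SD over 3 arrays and open diamonds are the 3 arrays that stood apart; Kupffer arrays at 3 days lay between 10.88 and 11.61.

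Most subunits were well above background. 72 of the 85 had group means above the negative control mean in all 16 groups. Below it in every group were 6 genes: Cox4i2, an isoform known from lung and hypoxia, Cox6b2 and Cox8c, known from testis, Cox8b, known from muscle, Cox7b2, and Ndufa4l2, known as a hypoxia-induced relative of Ndufa4. Another 7 were below it in some groups only, namely Atp5k, Cox6a2, Cox7a1, Ndufa7, Ndufb10, Ndufv3 and Uqcr11. Cox6a2 and Cox7a1, both known as muscle isoforms, were below it in 12 and 5 groups.

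Over the 16 groups the median range of group means was 1.89 for the 85 genes and 1.63 for all genes, a difference that was not tested. The widest range belonged to Ndufs7, an iron-sulphur subunit of complex I, at 4.39, with the highest group mean, 13.47, in Kupffer CD146 cultures at 3 days and the lowest, 9.08, in Kupffer MCSF cultures at 1 day. Atp5e, the epsilon subunit of the ATP synthase stalk, Uqcr10, a small complex III subunit, and Ndufa1, a complex I accessory subunit, followed with ranges of 3.59, 3.53 and 3.40.

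Across the 16 group means, the 72 genes that stayed above background followed the mean of the other subunits with a median Pearson correlation of 0.76. These points share arrays, scaling and culture time, so this is a description only. 4 genes ran at or below a correlation of 0: Uqcrb at -0.63, Ndufc2 at -0.39, Atp5h at -0.25 and Sdha, the flavoprotein of complex II, at -0.07. With all arrays 8 genes passed the test in none of the 16 comparisons of 2 groups. They were Atp5c1, Atp5h, Cox7b, Ndufa5, Ndufa8, Ndufv3, Sdha and Uqcrc2. Without the 3 arrays Cox7b was called higher in monocytic macrophages at 3 days, by 1.70 with Ito cells and 1.37 with HGF. Atp5h, Ndufa5, Ndufa8, Ndufv3 and Sdha were also called in some comparisons of that fit.

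**Figure D2:**
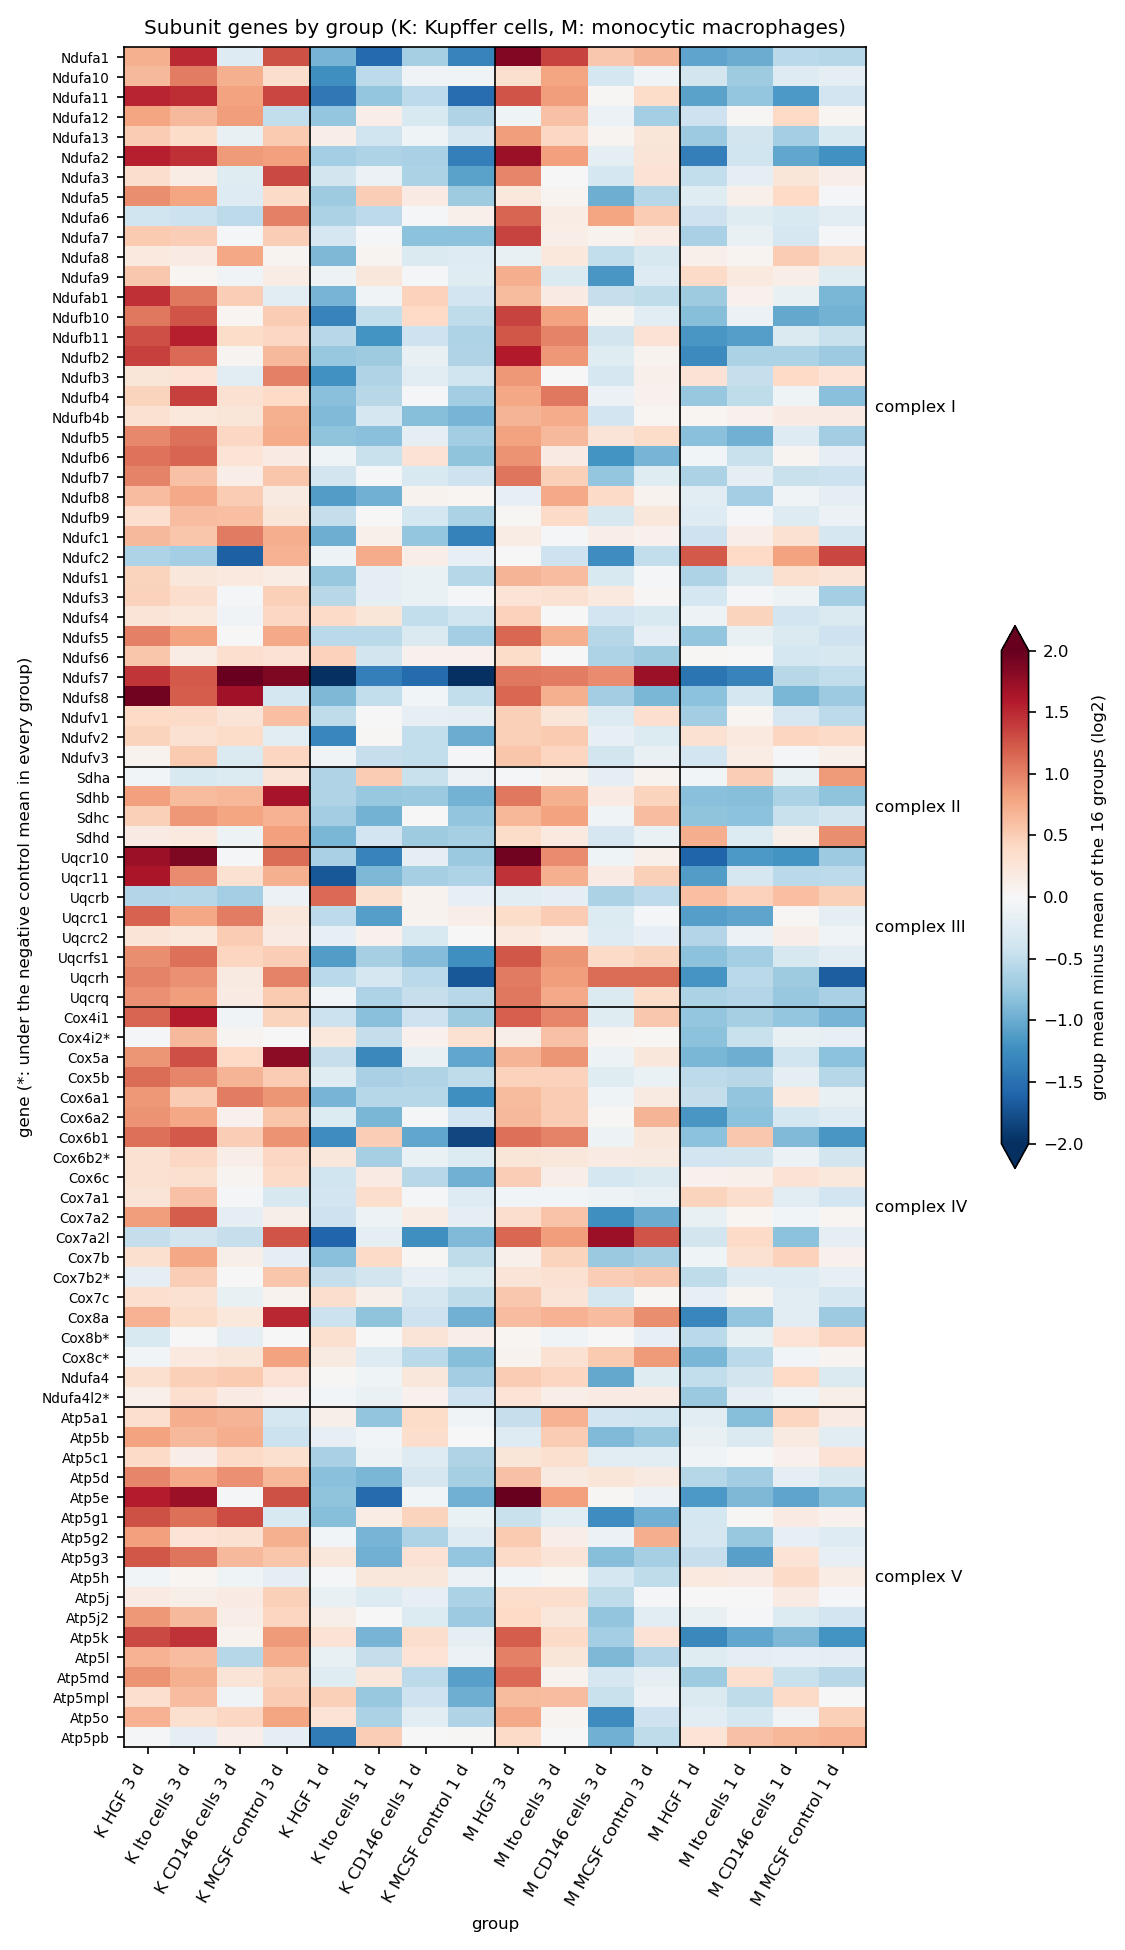
Group mean minus the mean of the 16 groups (log2) for each of the 85 genes, arranged by complex, with Kupffer groups on the left, monocytic groups on the right and 3 days left of 1 day in each. Red is above and blue below the gene's own mean and an asterisk marks the 6 genes under the negative control mean in every group; Ndufs7 spans 9.08 to 13.47, the widest range.

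Time in MCSF alone moved the subunits of Kupffer cells upward, with the largest median among the 16 comparisons when all arrays were used. At 3 days against 1 day 53 of the 85 genes were higher and 0 lower, where 21.5% of all genes were called higher and 10.2% lower. The median difference was 1.00 over the subunits and 0.15 over all genes. Every complex took part, with 20 of 36 genes higher in complex I, 3 of 4 in complex II, 5 of 8 in complex III, 15 of 20 in complex IV and 10 of 17 in complex V. Without the 3 arrays 32 were higher and 5 lower, against 20.9% and 10.5% of all genes, with a median of 0.55 against 0.17, which is below the 0.81 for HGF in monocytic macrophages at 3 days in that fit. Leaving out replicate 1 of the 1-day group alone gave 28 higher and 3 lower.

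Ndufs7 read 13.69, 13.09 and 13.34 in Kupffer cells at 3 days, against 6.66, 10.32 and 10.26 at 1 day. All 3 later arrays lay above all earlier ones, and replicate 1 at 1 day was far below the other 2. The difference was 4.29 ± 0.59 (SE, adjusted p = 1.75e-07) and 3.08 without the 3 arrays.

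Cox5a, a nuclear subunit of cytochrome c oxidase, read 13.05, 13.39 and 13.56 at 3 days, against 10.03, 10.70 and 10.78 at 1 day. The groups were separate without replicate 1 as well. The difference was 2.83 ± 0.26 (adjusted p = 1.34e-11), and 2.59 without the 3 arrays. Sdhb, the iron-sulphur subunit of complex II, read 14.03, 14.01 and 14.08 at 3 days, against 10.62, 11.92 and 11.79 at 1 day. Its 3-day arrays were nearly equal and lay above all 1-day arrays. The difference was 2.60 ± 0.27 (adjusted p = 5.24e-10).

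Other genes that rose and kept the call without the 3 arrays were Ndufa11 (2.86 ± 0.40), a membrane-arm subunit of complex I, Cox6b1 (2.72 ± 0.33), which faces the intermembrane space, and Uqcrfs1, the Rieske iron-sulphur protein of complex III, at 1.71 (adjusted p = 7.57e-06). The common isoforms Cox4i1, Cox6a1, Cox8a and the supercomplex factor Cox7a2l rose by 1.16, 2.12, 2.48 and 2.14, and by 1.26, 1.30, 1.39 and 1.61 without the 3 arrays (1.30 and 1.39 for Cox6a1 and Cox8a also when replicate 1 at 1 day alone was left out). The call on Cox4i1 was lost without replicate 3 at 1 day or replicates 1 or 3 at 3 days. The catalytic head of the ATP synthase was not among them. Atp5a1, its alpha subunit, differed by -0.28 (adjusted p = 0.404). Atp5b, its beta subunit, differed by -0.44 (adjusted p = 0.281), and by -0.84 (adjusted p = 0.0021) without the 3 arrays. Atp5h, Atp5pb, Ndufa12 and Uqcrb were the other 4 genes called lower in that fit.

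Markers of other cells moved in the same comparison. Endothelial markers were lower at 3 days for 9 of 10 genes, hepatocyte markers for 7 of 8, bile duct markers for 3 of 4, B cell markers for 3 of 4 and cell cycle genes for 6 of 9, and macrophage markers were higher for 4 of 7 and Ito cell markers for 5 of 9. Neutrophil markers were lower for 3 of 5 and higher for 1, with a median of -5.20, and T and NK cell markers were lower for 2 of 6, or for 4 without the 3 arrays. The endothelial mean was 5.48 to 5.67 at 3 days, against 9.09 to 11.28 at 1 day. No marker stood at 0, since a log2 signal has no zero, and the part of these cells in the result was not tested.

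In monocytic macrophages the same interval gave a mixed picture. At 3 days against 1 day in MCSF, 20 subunits were higher and 4 lower, where 19.5% and 9.82% of all genes were called, and the median difference was 0.24 against 0.13. The share called higher was close to that of all genes. Without the 3 arrays 20 were higher and 18 lower, against 21.6% and 12.2%, with a median of 0.09 against 0.13, and 17 higher and all 4 lower genes were called in both fits. The 18 lower genes included 7 of the 17 in complex V, where 2 were higher and the median was -0.62. Cell cycle genes were higher for 5 of 9 with all arrays and Ito cell markers for 7 of 9, with Ito cell marker means of 5.69 to 6.70 at 3 days, against 4.50 to 4.58 at 1 day, and their part was not tested. When the 3 arrays were left out, 3 cell cycle genes were higher and 3 lower.

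Uqcrh, the hinge protein of complex III, read 15.24, 14.85 and 14.64 in monocytic macrophages at 3 days, against 12.06, 12.64 and 11.71 at 1 day. The groups did not overlap, and the difference was 2.77 ± 0.35 (adjusted p = 5.48e-08). Ndufc2, a membrane-arm subunit of complex I, moved the other way. It read 12.64, 12.74 and 13.02 at 3 days, against 14.53, 14.71 and 14.65 at 1 day, a difference of -1.83 ± 0.35 (adjusted p = 6.9e-05). Sdhd, a membrane anchor of complex II, Atp5g1, which encodes the c subunit of the ATP synthase rotor, and Atp5o, the peripheral stalk protein OSCP, fell by 1.06, 1.05 and 0.89. For Atp5o the groups overlapped, with 11.09, 11.90 and 13.17 at 3 days, against 12.84, 13.13 and 12.87 at 1 day. Its difference was -1.45 without replicate 3 at 3 days and -0.41 without replicate 1, and the call was lost without replicates 1 or 2 at 3 days or replicate 2 at 1 day. The calls on Sdhd and Atp5g1 were each lost in 5 of the 6 fits that left out 1 array of the groups, the exception being replicate 3 at 3 days.

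The c subunit is encoded by 3 genes that give the same mature protein. In the fit without the 3 arrays Atp5g1 fell by 1.39 and Atp5g3 by 0.97, while Atp5g2 rose by 0.88. The catalytic subunits Atp5a1 and Atp5b fell by 0.86 (adjusted p = 0.00438) and 0.82 (adjusted p = 0.00231) in that fit. The time comparisons of the 2 cell kinds share no array, and 19 subunits were higher in both, which is 19 of the 53 in Kupffer cells and 19 of the 20 in monocytic macrophages. They include Ndufs7, Ndufv1, Sdhb, Sdhc, Uqcrh, Uqcrq, Cox4i1, Cox5a, Cox6b1, Cox7a2l and Cox8a. The call on Sdhc in monocytic macrophages was lost without the 3 arrays (adjusted p = 0.07).

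Between the 2 origins in MCSF at 3 days, 7 subunits were higher and 0 lower in Kupffer cells than in monocytic macrophages. Of all genes 6.38% and 5.70% were called, so the share called higher was near the background, with a median difference of 0.48 over the subunits and -0.02 over all genes. Without the 3 arrays 35 were higher and 0 lower, against 9.18% and 8.09%, with a median of 0.69: 14 genes in complex I, 2 in complex II, 8 in complex IV and 11 in complex V. The count turns on single arrays of the monocytic control: it was 11 without its replicate 3, 2 without replicate 1 and 3 without replicate 2, and 4 without replicate 3 of the Kupffer group.

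Cox5a read 13.05, 13.39 and 13.56 in Kupffer cells, against 11.39, 11.47 and 12.48 in monocytic macrophages. All Kupffer arrays were above all monocytic ones, and replicate 3 of the monocytic group was the closest. The difference was 1.55 ± 0.26 (adjusted p = 1.62e-05) and 1.91 without the 3 arrays. Atp5o read 13.26, 13.01 and 13.51 in Kupffer cells, against 11.09, 11.90 and 13.17 in monocytic macrophages. Here replicate 3 of the monocytic group lay inside the Kupffer range, and the difference was 1.21, or 0.72 with the call lost without replicate 1 of the monocytic group. Atp5l, subunit g of the ATP synthase membrane part, Atp5g3 and Sdhb were higher by 1.30, 1.23 and 1.21, and Ndufc2 and Ndufs4 were the other 2 genes called. Without replicate 1 of the monocytic group the calls on Atp5l, Atp5g3, Ndufc2 and Ndufs4 were lost as well. Cell cycle genes were lower in Kupffer cells for 3 of 9 and higher for 0 in this comparison, with 1 lower and 2 higher without the 3 arrays. With all arrays macrophage markers were higher for 3 of 7 and neutrophil markers for 2 of 5, with 0 lower in both lists. Ito cell markers were higher for 2 of 9 and lower for 1, and endothelial markers lower for 2 of 10 and higher for 0. The part of cell division or of these cells was not tested.

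At 1 day the direction was not stable. With all arrays 0 subunits were higher and 13 lower in Kupffer cells, against 9.73% and 11.6% of all genes. Leaving out the 3 arrays gave 9 higher and 2 lower, against 8.62% and 9.15%. The difference of Ndufs7 was -1.93 with all arrays and -0.72 (adjusted p = 0.163) without the 3. The same held for Ndufv2, an iron-sulphur subunit of complex I, at -1.38 and -0.69 (adjusted p = 0.0937). Only Sdhd (-1.60 and -0.80) and Ndufc2 (-1.51 and -0.84) were called lower both times. Leaving out replicate 1 of the Kupffer group alone gave 1 higher and 0 lower, leaving out its replicate 2 gave 20 lower, and leaving out replicates 1 or 2 of the monocytic group gave 7 or 5 lower. Endothelial markers were higher in Kupffer cells for 9 of 10 genes at this time, hepatocyte markers for 7 of 8 and bile duct markers for 4 of 4 and cell cycle genes for 7 of 9, with endothelial means of 9.09 to 11.28, against 5.81 to 5.92, and their part was not tested.

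**Figure D3:**
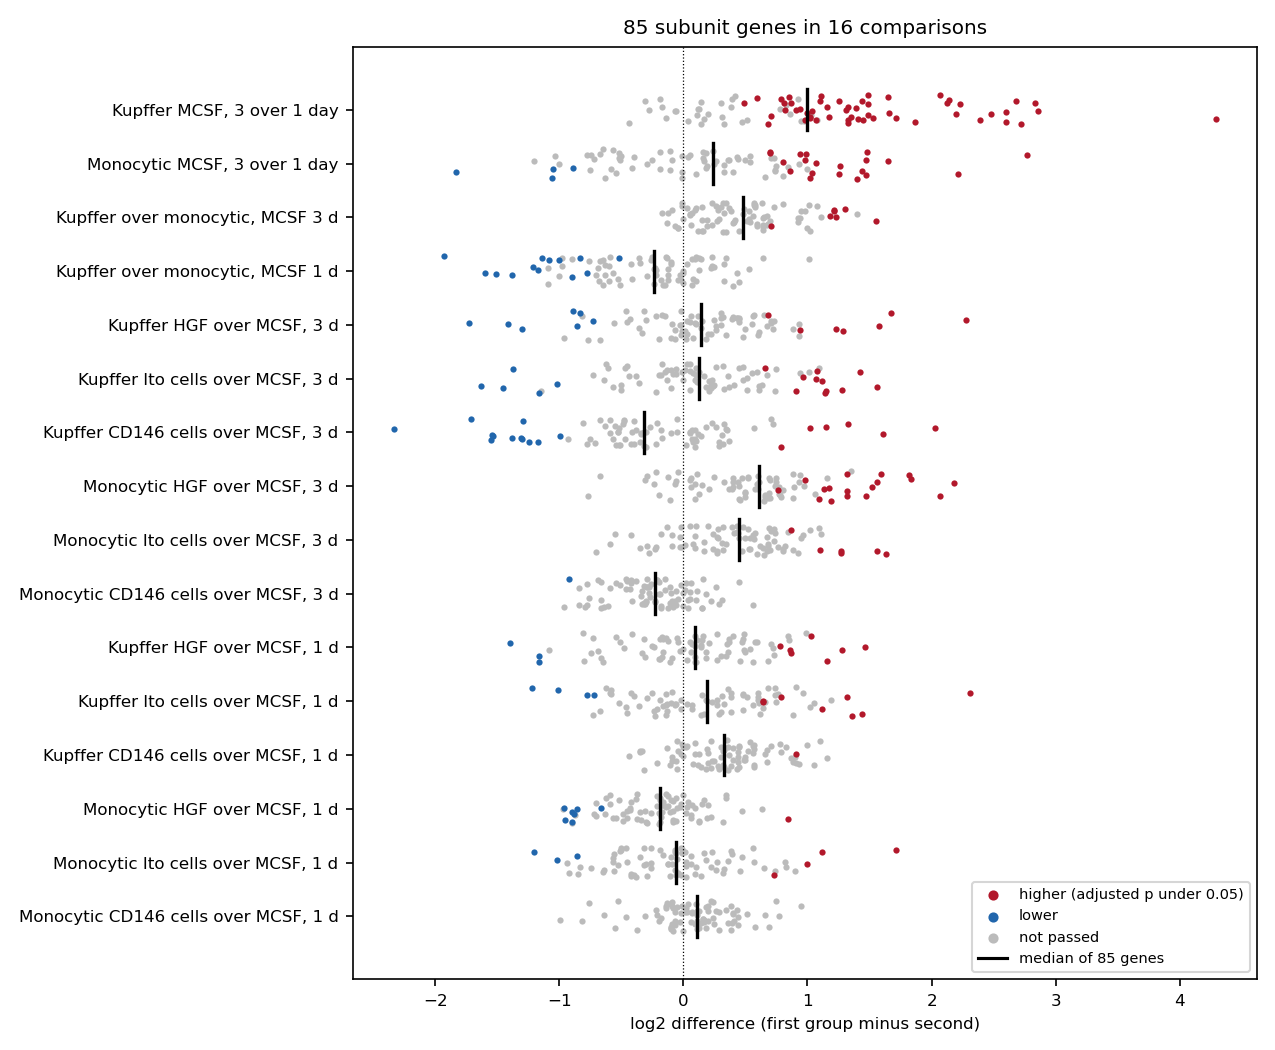
Log2 differences of the 85 genes in 16 comparisons, the group named first minus the one after it. Each point is a gene, red where called higher, blue where called lower and grey where not called, and the black bar is the median; the medians run from 1.00 for Kupffer MCSF at 3 days over 1 day to -0.32 for CD146 cells over MCSF in Kupffer cells at 3 days.

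In monocytic macrophages at 3 days HGF came with the longest list of higher subunits of the 3 additions. With all arrays 17 genes were higher and 0 lower, where 7.56% and 5.46% of all genes were called. They were 12 of complex I, 1 of complex III and 4 of complex V, and the median difference was 0.61 against -0.02 over all genes. Without the 3 arrays 48 were higher and 1 lower, against 12.6% and 9.74%, with 22 in complex I, 2 in complex II, 4 in complex III, 8 in complex IV and 12 in complex V, and all 17 were among them. The count was 4 without replicate 3 of the HGF group, and without replicates 1, 2 or 3 of the control it was 6, 8 or 32.

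Atp5e read 9.14, 10.36 and 11.51 with HGF, against 7.83, 7.84 and 8.80 in MCSF. The HGF arrays were all above the control arrays and spread widely among themselves, with replicate 3 the highest. The difference was 2.18 ± 0.49 (adjusted p = 0.00161) and 2.50 without the 3 arrays. Ndufs8, an iron-sulphur subunit of the peripheral arm of complex I, read 12.52, 12.59 and 13.88 with HGF, against 10.36, 10.68 and 11.75 in MCSF. Replicate 3 was the highest in both groups, and the groups did not overlap. The difference was 2.07 ± 0.45 (adjusted p = 0.00131) and 2.48 without the 3 arrays. Ndufb6, a membrane-arm subunit, and Uqcr10 rose by 1.83 and 1.82, and both calls were lost without replicate 3 of the HGF group, where Uqcr10 differed by 1.16.

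With Ito cells the called genes were also all higher. With all arrays 6 subunits were higher and 0 lower, where 5.80% and 6.66% of all genes were called, a share near the background, with a median of 0.45 against 0.04. After removal of the 3 arrays 33 were higher and 0 lower, against 10.1% and 10.8%, of which 14 belong to complex I, 8 to complex IV and 11 to complex V. The count was 17 without replicate 3 of the control, 2 or 3 without its replicates 1 or 2, and 3 without replicates 2 or 3 of the Ito group.

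Atp5b read 16.51, 16.68 and 16.79 with Ito cells, against 15.13, 15.10 and 15.96 in MCSF. The groups were separate, and the difference was 1.27 (adjusted p = 0.00237), or 1.55 without the 3 arrays. Its partner Atp5a1 read 16.33, 16.48 and 16.49, against 14.83, 15.27 and 15.91, a difference of 1.10 (adjusted p = 0.00102). Ndufs8, Cox7a2, the common isoform of a small complex IV subunit, and Ndufa12, an accessory subunit of complex I, rose by 1.63, 1.56 and 1.27, and Ndufa10 was the other gene called. For Ndufa12 the groups overlapped, with 14.04, 13.91 and 13.48 with Ito cells, against 11.49, 12.21 and 13.91 in MCSF. Its difference was 1.96 without replicate 3 of the control and 0.75 without replicate 1, and its call and that on Cox7a2 were each lost without any 1 array of the 2 groups other than that replicate 3. The call on Ndufs8 was lost without replicates 1 or 2 of the control, and that on Ndufa10 without replicate 1 of the control or replicates 2 or 3 of the Ito group. HGF and Ito cells were set against the same control arrays. With HGF, Atp5b read 15.67, 15.64 and 16.39 and Atp5a1 15.32, 15.32 and 15.19, and neither was called with all arrays. Without the 3 arrays Atp5b was called higher with HGF too, by 0.79 (adjusted p = 0.00536). Atp5a1 was not called there, at 0.23 (adjusted p = 0.569).

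With CD146 cells at 3 days almost no subunit passed the test in monocytic macrophages. There 0 genes were higher and 1 lower, where 1.22% and 1.18% of all genes were called, and the median was -0.23. Ndufa9, a complex I subunit where its arms join, read between 8.73 and 9.09 with CD146 cells, against 9.30, 9.82 and 10.44 in MCSF. The groups did not overlap, and the difference was -0.92 ± 0.26 (adjusted p = 0.0477). Without the 3 arrays the call on Ndufa9 was lost and Ndufa12 was called higher, 1 of 85 against 2.50% of all genes. Leaving out replicate 1 of the control gave 2 lower genes, and leaving out any other array of the 2 groups gave 0.

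Cell cycle genes moved with these results. All 9 were higher with HGF and all 9 with Ito cells, and with CD146 cells 0 were higher and 1 lower. Their mean was 10.92 to 11.57 with HGF, 11.66 to 12.10 with Ito cells and 7.15 to 7.67 with CD146 cells, against 7.17 to 12.03 in MCSF, where the upper value is replicate 3. Ito cell markers were lower for 6 of 9 genes with HGF and 5 of 9 with Ito cells, and for 4 of 9 with CD146 cells. The part of cell division or of other cells in the result was not tested.

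**Figure D4:**
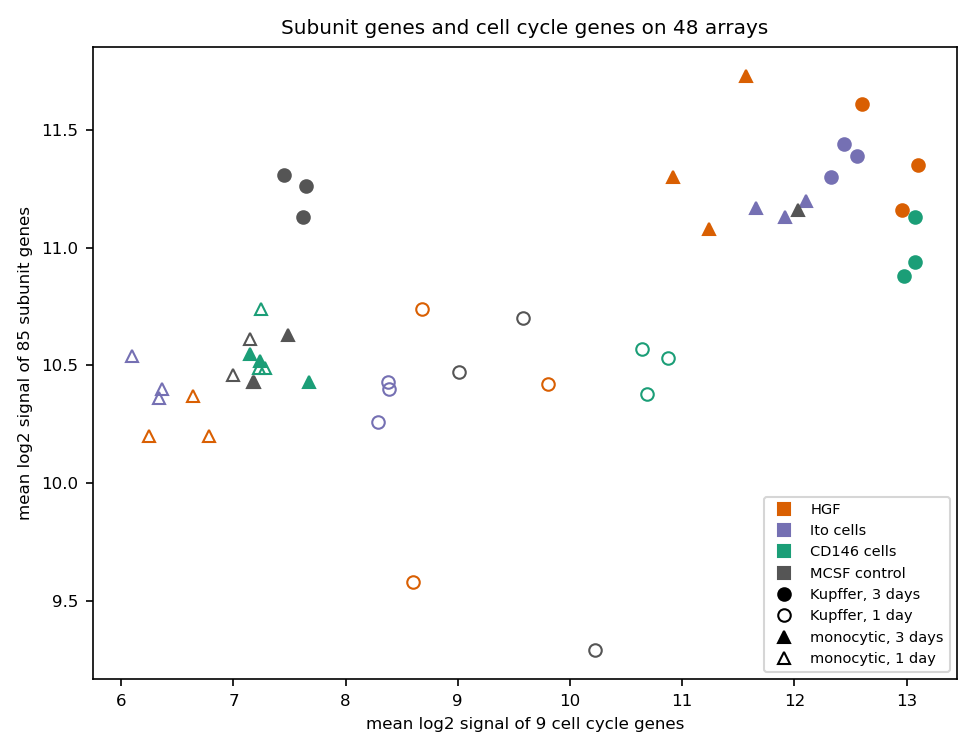
Mean log2 signal of the 85 subunit genes (vertical) against that of 9 cell cycle genes (horizontal) on the 48 arrays, with colour for the addition, circles for Kupffer cells, triangles for monocytic macrophages and filled symbols for 3 days. The Kupffer MCSF arrays at 3 days lie at 11.13 to 11.31 with cell cycle means of 7.45 to 7.65, and replicate 3 of the monocytic MCSF group at 3 days lies at 11.16 and 12.03.

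In Kupffer cells at 3 days each addition came with some subunits higher and others lower. HGF gave 7 higher and 7 lower genes, where 14.5% and 13.1% of all genes were called. Ito cells gave 11 higher and 5 lower, against 14.5% and 12.3%. CD146 cells gave 6 higher and 12 lower, against 14.0% and 12.4%. All these shares are near or below the background. Median differences were 0.14, 0.13 and -0.32, against 0.00, 0.11 and 0.01 over all genes. The arrays that stood apart are in none of these 4 groups, and in the fit without them, where the median residual SD is 0.30 in place of 0.34, the counts were 13 higher and 11 lower with HGF (where 17.1% of all genes were higher and 3112 of 19505 lower), 16 and 9 with Ito cells (18.0% higher and 14.8% lower) and 8 and 17 with CD146 cells (16.6% higher and 15.2% lower). For Ito cells the count was 10 without replicate 2 of the Ito group and 8 without replicate 2 of the control.

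The 3 comparisons share their control arrays, so genes called in all of them are given by their values side by side. Ndufs8, Atp5g1, Atp5b, Atp5a1 and Ndufa12 were higher with each addition, and Cox7a2l, Ndufa6, Ndufc2 and Sdhb lower. Ndufs8 read 13.96, 14.07 and 13.32 with HGF, 13.33, 12.84 and 13.01 with Ito cells and 14.15, 13.28 and 13.16 with CD146 cells, against 11.59, 11.08 and 11.82 in MCSF. Every array with an addition was above every control array. The differences were 2.28 ± 0.45 (adjusted p = 9.05e-05), 1.56 (adjusted p = 0.0075) and 2.03 (adjusted p = 0.000451).

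Atp5g1 read 15.13, 14.84 and 14.64 with HGF, 14.73, 14.72 and 14.66 with Ito cells and 15.16, 14.76 and 14.78 with CD146 cells, against 13.67, 13.07 and 13.12 in MCSF. The 9 arrays with an addition lay between 14.64 and 15.16, and the highest control array at 13.67. The differences were 1.58, 1.42 and 1.61. Atp5b rose by 1.23, 1.08 and 1.15, Atp5a1 by 0.68, 1.07 and 1.02, and Ndufa12 by 1.29, 1.14 and 1.33. With HGF the Atp5a1 groups overlapped, at 15.79, 15.91 and 16.53 with HGF, against 15.87, 15.49 and 14.81 in MCSF. That difference was 0.39 without replicate 3 of the control, and the call was lost without it or without replicate 3 of the HGF group. The Ndufa12 calls were lost in 4, 4 and 2 of the 6 fits that left out 1 array of the groups, for HGF, Ito cells and CD146 cells. Ndufab1, the mitochondrial acyl carrier protein that is also a complex I subunit, rose by 1.67 with HGF (adjusted p = 3.34e-05) and by 1.28 with Ito cells. The core protein Uqcrc1 rose by 0.94 with HGF and 0.79 with CD146 cells.

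Cox7a2l, which is known to join complexes III and IV into supercomplexes, read 10.93, 10.57 and 10.48 with HGF, 11.17, 10.41 and 10.70 with Ito cells and 10.70, 10.65 and 10.67 with CD146 cells, against 12.47, 12.15 and 12.55 in MCSF. Every control array was above every other array. It fell by 1.73 (adjusted p = 0.000141), 1.63 and 1.71. Ndufa6, an accessory subunit of the peripheral arm of complex I, read 8.61, 9.15 and 8.90 with HGF, 8.90, 9.18 and 8.47 with Ito cells and 8.66, 9.01 and 8.63 with CD146 cells, against 10.61, 10.01 and 10.27 in MCSF. It fell by 1.41 (adjusted p = 0.00136), 1.45 and 1.53.

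Ndufc2 read 12.72, 13.17 and 12.13 with HGF, 12.39, 12.80 and 12.64 with Ito cells and 11.93, 11.41 and 11.59 with CD146 cells, against 13.92, 13.84 and 14.17 in MCSF. The CD146 arrays were the lowest, and the fall of 2.33 ± 0.35 there (adjusted p = 7.26e-07) stood beside 1.30 with HGF and 1.37 with Ito cells. Sdhb fell by 0.83 (adjusted p = 0.0186), 1.02 and 0.99, and Cox5a by 0.89 with HGF and 1.38 with CD146 cells. With CD146 cells Ndufa3, Ndufa1, Atp5e, Cox8a, Atp5l, Ndufb3 and Uqcr10 were also lower, by 1.17 to 1.55. The calls on Atp5e and Uqcr10 were lost in 5 of 6 fits that left out 1 array, those on Cox8a and Ndufb3 in 4 and that on Atp5l in 2. The Sdhb call with HGF was lost without replicate 3 of either group.

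**Figure D5:**
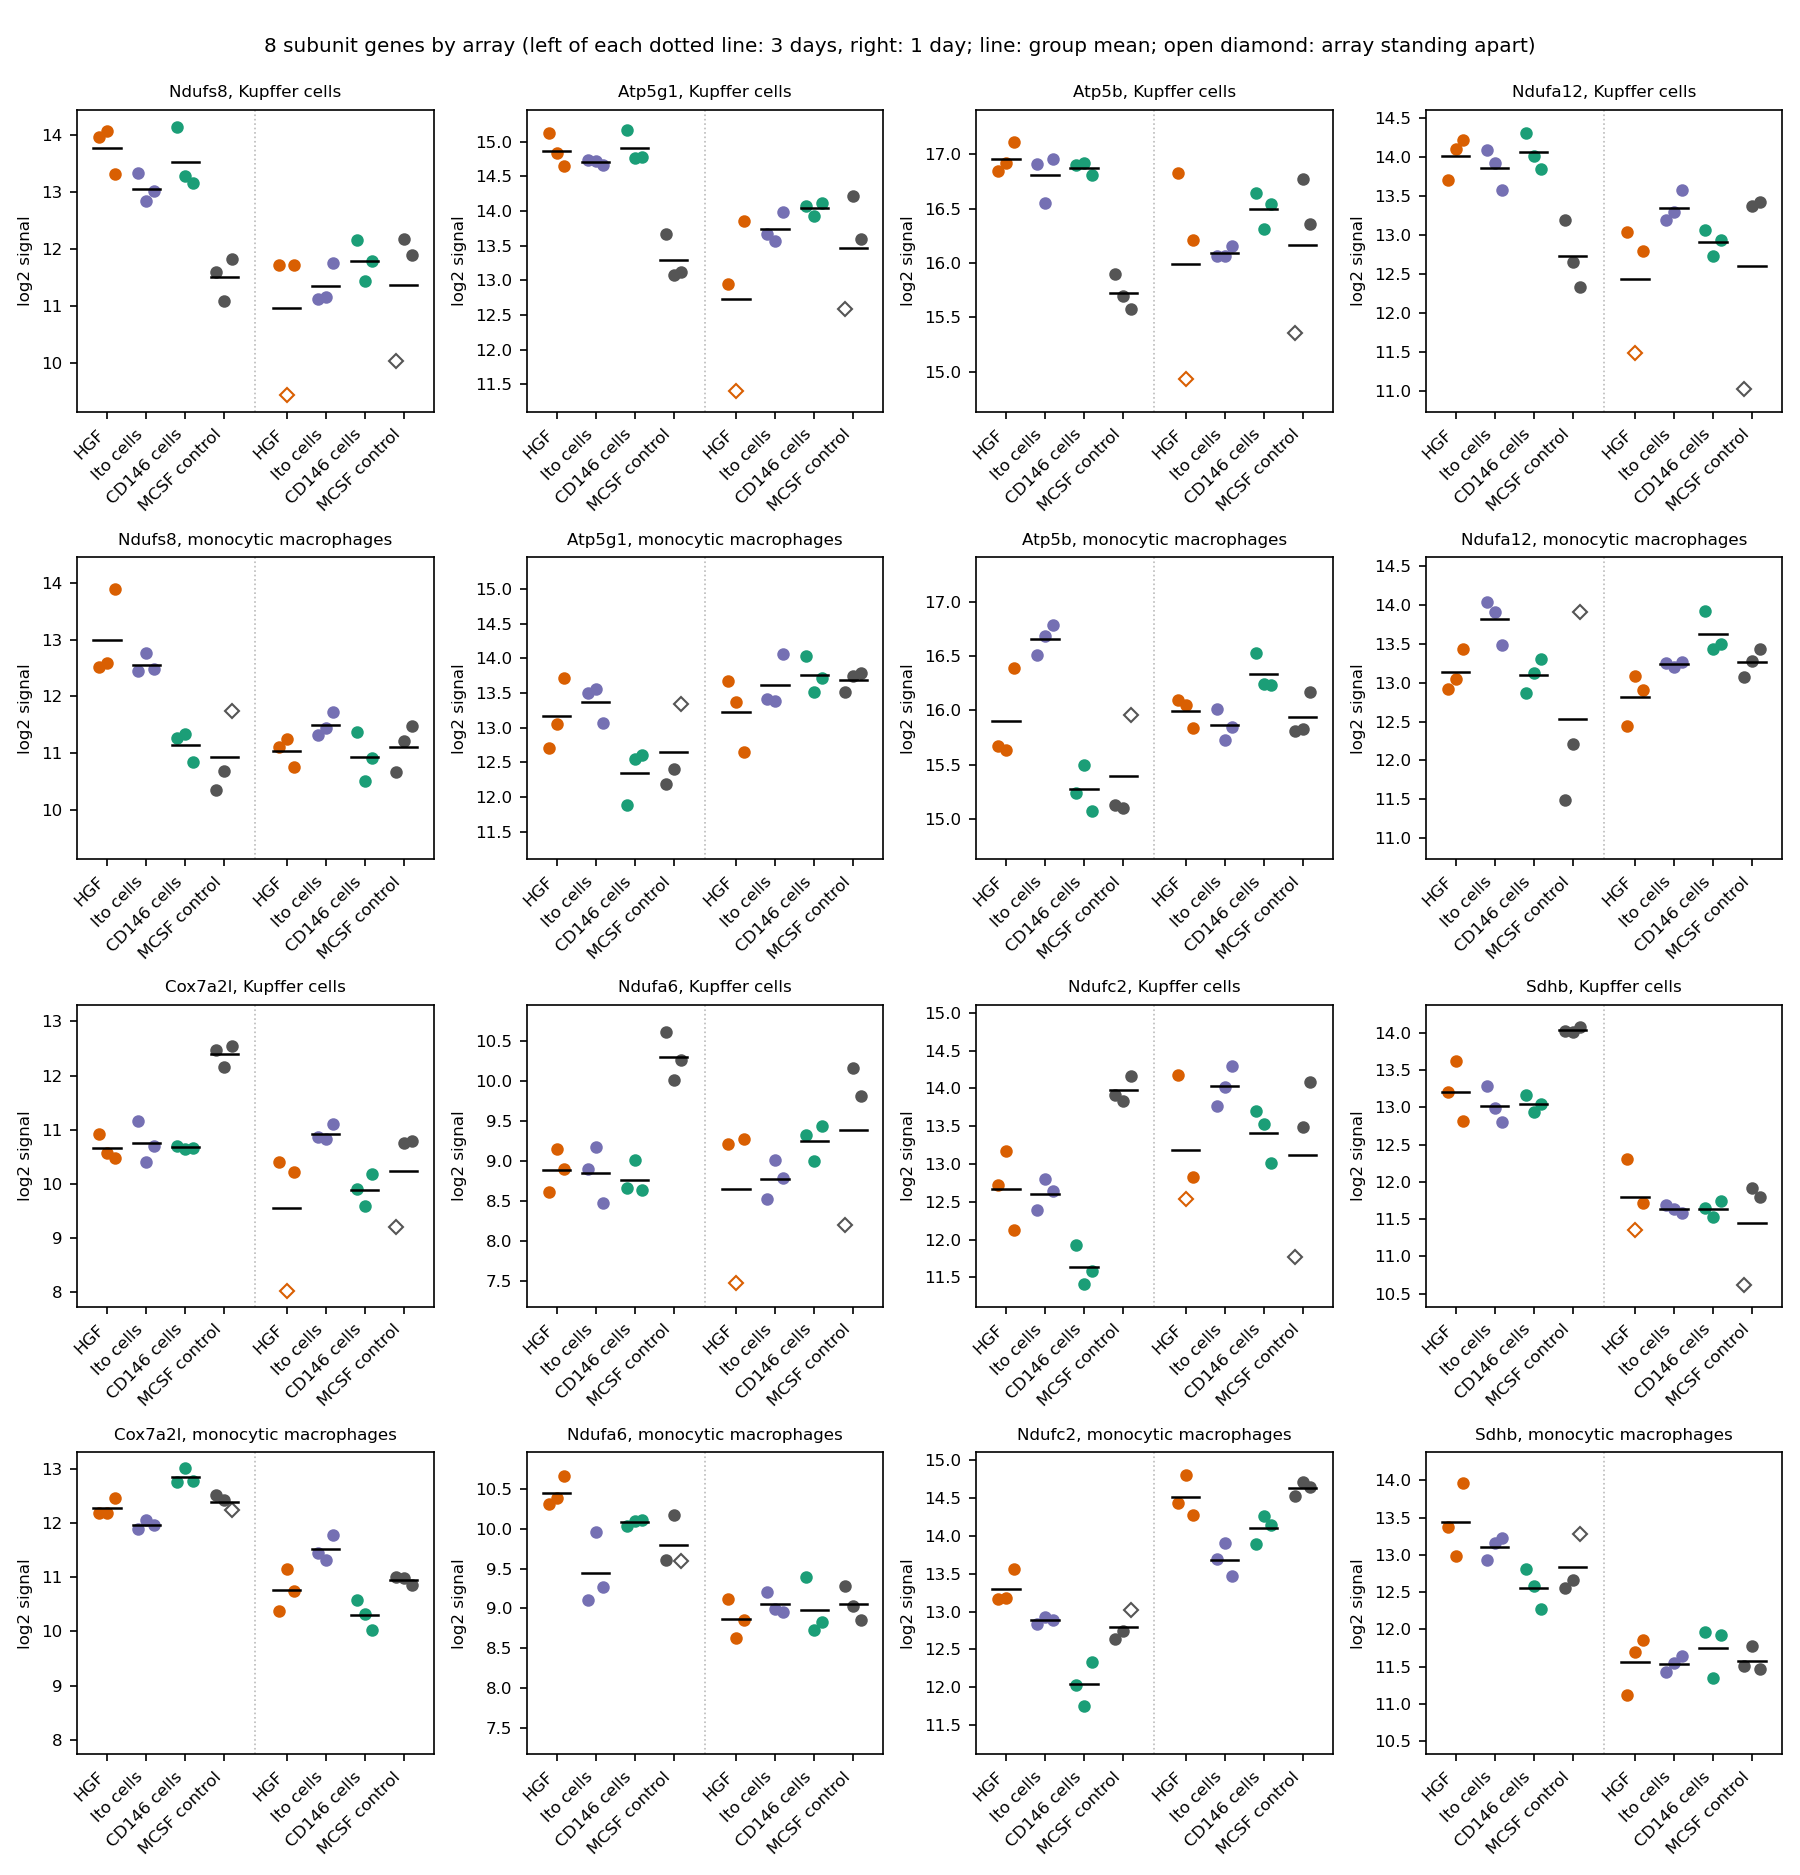
Log2 signal of 8 subunits on each array by addition and time in Kupffer cells and monocytic macrophages; each point is an array. In Kupffer cells at 3 days Ndufs8, Atp5g1, Atp5b and Ndufa12 lie higher with every addition than in MCSF, and Cox7a2l, Ndufa6, Ndufc2 and Sdhb lie lower.

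The promoters of 4 of these genes are printed because the genes moved in opposite directions in the same cultures, Ndufs8 and Atp5g1 higher and Ndufa6 and Sdhb lower. Each run holds 250 bases before and 50 bases after the gene's start, from RefSeq on GRCm38.p6, read 5′ to 3′ on the gene's strand. Capitals mark matches, on either strand, to 3 motifs known from promoters of respiratory genes: GCATGCGC of the factor NRF1, CCGGAAG of the ETS family, to which GABP belongs, and AAGATGGC of YY1. Ndufs8 is at chr19:3912725-3913024 on the minus strand, Atp5g1 at chr11:96075582-96075881 on the minus strand, Ndufa6 at chr15:82354242-82354541 on the minus strand and Sdhb at chr4:140961021-140961320 on the plus strand.
Ndufs8: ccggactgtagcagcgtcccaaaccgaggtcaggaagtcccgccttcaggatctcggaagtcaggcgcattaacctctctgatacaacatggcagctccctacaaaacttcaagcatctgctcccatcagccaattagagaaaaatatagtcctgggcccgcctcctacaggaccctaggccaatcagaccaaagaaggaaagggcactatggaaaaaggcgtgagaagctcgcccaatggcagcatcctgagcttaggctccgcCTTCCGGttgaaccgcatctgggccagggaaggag
Atp5g1: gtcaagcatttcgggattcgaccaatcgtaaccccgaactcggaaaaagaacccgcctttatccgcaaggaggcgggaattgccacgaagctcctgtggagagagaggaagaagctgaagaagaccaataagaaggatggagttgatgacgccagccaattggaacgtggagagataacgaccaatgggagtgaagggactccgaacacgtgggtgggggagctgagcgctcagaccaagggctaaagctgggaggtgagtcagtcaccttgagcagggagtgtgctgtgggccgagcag
Ndufa6: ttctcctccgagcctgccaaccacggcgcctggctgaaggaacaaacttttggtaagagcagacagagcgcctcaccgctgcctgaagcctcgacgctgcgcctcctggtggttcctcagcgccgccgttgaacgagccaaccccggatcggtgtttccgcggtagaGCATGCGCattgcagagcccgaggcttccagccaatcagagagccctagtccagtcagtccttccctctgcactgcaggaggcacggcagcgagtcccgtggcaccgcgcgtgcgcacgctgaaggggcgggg
Sdhb: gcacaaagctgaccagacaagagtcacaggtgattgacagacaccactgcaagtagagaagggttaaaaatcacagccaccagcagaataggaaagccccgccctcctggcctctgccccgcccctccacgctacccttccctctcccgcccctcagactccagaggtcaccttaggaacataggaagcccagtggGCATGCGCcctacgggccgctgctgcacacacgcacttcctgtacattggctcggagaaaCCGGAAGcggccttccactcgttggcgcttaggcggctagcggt

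With the start as base 1, the ETS letters in Ndufs8 begin at base 16 as the reverse complement. The NRF1 letters begin at base -83 in Ndufa6 and at base -54 in Sdhb, and the ETS letters begin at base 7 in Sdhb. None of the 3 motifs is in the Atp5g1 window, which says only that these letters are not there. Promoters were found for 70 of the 85 genes in 75 windows. NRF1 letters were in 10 of the 75 (13.3%, against 2.71% of 32851 promoters), ETS letters in 17 (22.7% against 8.86%), YY1 letters in 10 (13.3% against 2.75%) and any of them in 31 (41.3% against 13.3%). A match describes the letters and shows no binding.

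The Kupffer cultures with additions also differed in marker genes from their control. Macrophage markers were lower for 6 of 7 genes with HGF, 4 of 7 with Ito cells and 5 of 7 with CD146 cells, with means of 14.23 to 14.45, 14.73 to 14.75 and 14.31 to 14.40, against 16.52 to 16.82 in MCSF. Cell cycle genes were higher for 9 of 9 with each addition, with means between 12.33 and 13.10, against 7.45 to 7.65. Bile duct markers were higher for 4 of 4 with each, with means of 8.92 to 9.82, 6.73 to 7.63 and 7.99 to 8.49, against 3.64 to 3.76. Endothelial markers were higher for 8, 6 and 4 of 10 and lower for 1 with each, and hepatocyte markers higher for 7, 7 and 2 of 8. Ito cell markers were higher for 2, 1 and 2 of 9 and lower for 1, 3 and 1. B cell markers were lower for 1 of 4 with each. T and NK cell markers were lower for 1, 0 and 1 of 6 and higher for 0, 1 and 0. Neutrophil markers were higher for 3, 4 and 3 of 5 and lower for 1, 0 and 2, with group means of 9.42, 12.43 and 8.47, against 7.33 in MCSF. The part of these cells in the subunit differences was not tested.

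Whether the 2 origins responded differently was tested as the Kupffer response minus the monocytic response. For HGF at 3 days 0 subunits were higher and 10 lower, where 7.58% and 7.61% of all genes were called, and without the 3 arrays 0 and 24, against 9.14% and 10.1%. The 10 were Ndufa6, Ndufc2, Ndufa3, Atp5l, Cox7a2l, Sdhb, Cox5a, Atp5o, Ndufa7 and Ndufs4. Single arrays moved this count to 4 without replicate 3 of the Kupffer HGF group, 5 without replicate 3 of the monocytic HGF group, and 6 without replicate 3 of the Kupffer control or replicates 1 or 2 of the monocytic control.

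For Ito cells at 3 days 0 were higher and 2 lower, Sdhb and Cox5a, against 4.58% and 4.16%, and without the 3 arrays 0 and 13, against 6.60% and 6.41%. This count was 0 or 1 when any 1 of the 12 arrays was left out, other than replicate 1 of the Kupffer control and replicate 3 of the monocytic control. For CD146 cells at 3 days 4 were higher (Atp5g1, Ndufs8, Atp5b and Atp5a1) and 4 lower (Cox7a2l, Ndufa6, Ndufc2 and Cox5a), against 9.64% and 8.54%, and 3 and 8 without the 3 arrays, against 10.5% and 9.65%. It was 5 without replicate 2 of the Kupffer CD146 group, replicate 3 of either control, or replicates 1 or 3 of the monocytic CD146 group.

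Cox7a2l read 12.75, 13.01 and 12.77 in monocytic macrophages with CD146 cells, against 12.52, 12.42 and 12.24 in MCSF. The difference between the responses was -2.16 (adjusted p = 0.0011). Atp5g1 read 11.89, 12.55 and 12.60 in monocytic macrophages with CD146 cells, against 12.19, 12.40 and 13.34 in MCSF, so these groups overlapped where the Kupffer ones did not. The difference between the responses was 1.91 (adjusted p = 0.00819). Ndufa6 differed in response by -2.07 (adjusted p = 0.00207) for HGF, with 10.31, 10.38 and 10.66 in monocytic macrophages with HGF, against 9.61, 10.17 and 9.59 in MCSF.

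At 1 day with all arrays, from 0 to 12 subunits were called for an addition. Without the 3 arrays the most were 10 higher and 8 lower, with Ito cells in monocytic macrophages. Some other ways of processing gave larger counts, as listed at the end. Ito cells gave the clearest single gene in both origins, Cox6b1. In Kupffer cells it read 13.03, 13.02 and 13.68 with Ito cells, against 9.96, 11.70 and 11.13 in MCSF, and in monocytic macrophages 13.06, 13.20 and 13.62, against 11.24, 11.69 and 11.82. The groups did not overlap in either. The differences were 2.31 ± 0.33 (adjusted p = 2.12e-06), or 1.83 without the 3 arrays, in Kupffer cells and 1.71 ± 0.33 (adjusted p = 0.00052) in monocytic macrophages.

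Atp5a1 was lower with Ito cells in both origins. It read 15.03, 15.23 and 14.60 in Kupffer cells, against 15.44, 16.07 and 15.51 in MCSF, a difference of -0.72 (adjusted p = 0.0243), and 14.85, 14.97 and 14.82 in monocytic macrophages, against 16.11, 15.72 and 15.88, a difference of -1.02 (adjusted p = 0.00311). Uqcrc1 was lower as well, by 1.22 (adjusted p = 0.00158) and 0.86. The Atp5a1 call in Kupffer cells was lost without replicate 2 of the control or replicate 3 of the Ito group, and the Uqcrc1 call in monocytic macrophages without replicates 2 or 3 of either group. Both genes were in turn higher at 3 days in some groups, Atp5a1 with Ito cells in both origins.

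In all, Kupffer cells with Ito cells at 1 day had 8 higher and 4 lower subunits, where 5.47% and 18.0% of all genes were called, and 2 and 11 without the 3 arrays, against 4.32% and 17.2%. Only Cox6b1, Atp5a1 and Uqcrc1 were called both times. The counts were 1 and 8 without replicate 1 of the control, 4 and 3 without replicate 2 and 6 and 1 without replicate 3 of the Ito group. Neutrophil markers were higher for 5 of 5 genes in this comparison, with means of 13.56 to 13.81, against 9.41 to 10.75. Endothelial markers were lower for 9 of 10 (median -2.87), bile duct markers for 4 of 4 (median -2.64) and hepatocyte markers for 4 of 8 (2 without the 3 arrays). B cell markers were lower for 0 of 4 with all arrays and for 4 without the 3, cell cycle genes for 2 and 5 of 9, and T and NK cell markers for 0 and 4 of 6. The part of these cells was not tested. Monocytic macrophages with Ito cells had 4 higher and 3 lower, against 1.91% and 13.6%, and 10 and 8 without the 3 arrays, against 3.60% and 21.9%. That count was 2 without replicates 2 or 3 of the Ito group, and 3, 4 or 5 without replicates 1, 2 or 3 of the control.

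HGF at 1 day gave 7 higher and 3 lower subunits in Kupffer cells, against 4.13% and 13.4%, led by Atp5mpl at 1.46 and Atp5pb at -1.40, which were 0.43 and -0.75 without the 3 arrays. None of these calls held without the 3 arrays, where 0 were higher and 1 lower, against 0.954% and 5.53%. Without replicate 1 or 2 of the HGF group the counts were 5 and 11 or 5 and 0, and without replicate 1 of the control 2 and 12. In monocytic macrophages HGF gave 1 higher and 7 lower, against 0.220% and 37.2%, with a median of -0.19 beside -0.55 over all genes, and 2 and 12 without the 3 arrays, against 0.426% and 46.6%. 5 of these 8 genes lay below the negative control probes, and with each array centred on its median 5 subunits were higher and 0 lower. The count was 5 without replicate 1 of the HGF group or replicate 2 of the control.

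The responses to HGF at 1 day differed between the origins for 7 genes, all higher in Kupffer cells, where 20.9% and 2.26% of all genes were called, so the share called higher was below the background. 5 of the 7 lay below the negative control probes in all the groups compared, and with each array centred on its median 2 subunits were higher and 3 lower. There were 7 higher and 1 lower without the 3 arrays, against 17.6% and 1.97%. The counts were 8 and 6 without replicate 1 of the Kupffer HGF group and 12 and 0 without replicate 2 of the Kupffer control. Those for Ito cells differed for Ndufc2 alone (1.85 ± 0.49, adjusted p = 0.0229, or 1.18 without the 3 arrays with the call lost), against 1.85% and 1.90%, and without the 3 arrays 0 were higher and 1 lower, against 1.94% and 2.31%. This count was 0 without replicate 3 of either Ito group, replicate 1 of the Kupffer control or replicate 2 of the monocytic control, and 2 or 4 without replicates 2 or 3 of the Kupffer control.

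CD146 cells at 1 day called Cox5a higher in Kupffer cells, by 0.91, as 1 of 85, against 1.32% and 2.46%. It was 1 and 5 without the 3 arrays, against 2.92% and 5.72%, and with all other arrays it was 0 without any 1 CD146 array, 1 lower without replicate 1 of the control and 4 higher without its replicate 2. In monocytic macrophages limma called 0 genes in either direction, where 1.00% and 1.33% of all genes were called, and 7 had an unadjusted p under 0.05. There 3 were higher and 2 lower without the 3 arrays, against 2.48% and 2.82%. In Kupffer cells endothelial markers were lower for 9 of 10 genes and B cell markers for 4 of 4 with CD146 cells at 1 day, neutrophil markers were higher for 4 of 5, cell cycle genes were higher for 0 of 9 with all arrays and 8 without the 3, and their part was not tested. The responses to CD146 cells at 1 day differed for 0 subunits in limma, against 0.164% and 0.713%, and for 1 lower without the 3 arrays, against 0.579% and 1.76%.

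Genes of neighbouring pathways were read in the same fits. In Kupffer cells at 3 days against 1 day in MCSF, 21.5% of all genes were called higher and 10.2% lower. Without the 3 arrays these shares were 20.9% and 10.5%. There 22 of 44 assembly factors of the chain were higher and 1 lower (median 0.71), and 25 of 76 mitochondrial ribosomal proteins were higher and 2 lower (median 0.62). Fatty acid oxidation had 9 of 13 genes higher and 0 lower (median 1.03), and mitochondrial oxidant defence 8 of 11 higher and 0 lower (median 1.39). Electron carriers and coenzyme Q genes had 8 of 17 higher and 1 lower, the tricarboxylic acid cycle 6 of 19 and 1, inner membrane carriers and import 6 of 23 and 0, glycolysis 7 of 16 and 3, the hypoxia response 10 of 17 and 3, and regulators of mitochondrial biogenesis 2 of 19 and 2. Biogenesis regulators and the import list were thus called at shares near or below those of all genes. Cytosolic ribosomal proteins had 3 of 62 higher and 15 lower (median -0.32). In the fit without the 3 arrays assembly factors had 18 higher and 1 lower (median 0.54), mitochondrial ribosomal proteins 25 and 3, fatty acid oxidation 7 and 0 (median 0.61), oxidant defence 6 and 1 (median 0.79), glycolysis 5 and 5 (median -0.27), inner membrane carriers and import 3 and 1, the tricarboxylic acid cycle 7 and 2, biogenesis regulators 3 and 2, and cytosolic ribosomal proteins 1 and 24.

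In monocytic macrophages over the same interval 19.5% of all genes were called higher and 9.82% lower. Fatty acid oxidation was again higher for 8 of 13 genes (median 0.72). Glycolysis had 1 of 16 genes higher and 11 lower (median -1.42), and the hypoxia response 1 of 17 higher and 10 lower (median -1.56). Kupffer cells in MCSF at 3 days had 10 of 16 glycolysis genes (median 1.32) and 5 of 19 genes of the tricarboxylic acid cycle (median 0.65) higher than monocytic macrophages, with 0 lower in both lists. Of all genes 6.38% were called higher and 5.70% lower there. The cycle had 10 higher and 1 lower without the 3 arrays, and glycolysis 14 higher and 0 lower, against 9.18% and 8.09% of all genes.

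HGF in monocytic macrophages at 3 days came with 23 of 76 mitochondrial ribosomal proteins (median 0.84), 9 of 16 glycolysis genes (median 1.35) and 8 of 17 hypoxia genes (median 0.83) higher and 0 lower in each. Ito cells gave 15 of 76 mitochondrial ribosomal proteins (median 0.55) and 9 of 16 glycolysis genes (median 1.33) higher, with 0 lower in both lists. With CD146 cells 8 of 16 glycolysis genes were higher (median 1.04), and mitochondrial ribosomal proteins had a median of -0.16. Of all genes 7.56%, 5.80% and 1.22% were called higher with HGF, Ito cells and CD146 cells, or 12.6%, 10.1% and 2.50% without the 3 arrays. After the 3 arrays were left out mitochondrial ribosomal proteins had 53 higher and 0 lower with HGF (median 1.05), 38 and 1 with Ito cells (median 0.74) and 1 and 1 with CD146 cells (median 0.05).

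In Kupffer cells at 3 days mitochondrial ribosomal proteins were higher for 26, 24 and 18 of 76 genes with HGF, Ito cells and CD146 cells (medians 0.53, 0.39 and 0.24), and cytosolic ones for 50, 45 and 26 of 62 (medians 1.33, 1.13 and 0.75). Carrier and import proteins of the inner membrane were higher for 13, 9 and 10 of 23 and lower for 3 with each (medians 1.05, 0.66 and 0.75). Hypoxia genes were lower for 10, 7 and 9 of 17 (medians -1.10, -0.28 and -1.08). Of all genes 14.5%, 14.5% and 14.0% were called higher and 13.1%, 12.3% and 12.4% lower. Lower counts of the ribosomal lists and higher counts of the hypoxia list are not given here.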

How the data were processed

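RNA of 48 samples was hybridised to Affymetrix arrays, 1 array per sample. Per the submitters' processing notes, the authors made the deposited log2 signal values with RMA and Transcriptome Analysis Console (no version named there). The table holds 28846 probe sets, of which 6640 are controls and 2634 have no symbol; the probe set with the highest mean was kept for 55 genes with several, leaving 19505 genes. No further normalization was applied. Groups came from the sample labels.

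limma 3.58.1 in R 4.3.3 fitted 1 mean per group over all 48 arrays, with eBayes at default settings and two-sided moderated tests of 22 contrasts. Benjamini-Hochberg adjustment ran over 19505 genes in each, with a threshold of 0.05; every adjusted p in the text is from this limma fit or from the same fit without 3 arrays. Depth does not apply to arrays, and 3 arrays per group limit the precision. On simulated data for HGF against MCSF in monocytic macrophages at 3 days (19505 genes), 40 of 100 genes changed 2-fold and 96 of 100 changed 4-fold were called, with 3 of 19305 unchanged genes. The noise was drawn separately for each gene and array, with 1 spread per gene. Shifts of whole arrays and unequal spread between groups were not simulated, so these rates need not hold for the real arrays.

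The members, pathway lists, markers and the 3 arrays that stood apart were chosen with earlier results of these data known. Named genes are up to 4 with the largest rise and 4 with the largest fall among the calls of a comparison, the 4 with the widest range, isoform pairs and core subunits; other genes named were chosen after their values were seen. The 11 pathway lists and 9 marker lists are read by counts and medians only. Alternatives were quantile normalization, median centring, a filter on the 25% dimmest genes, eBayes with trend and robust, the replicate number as a block, a fit of only the groups compared, and leaving out arrays. Arrays with equal replicate numbers did not deviate together (mean correlation of deviations -0.0103, against 0.0055 for different numbers; 1 of 120 pairs of groups had all correlations over 0.1), so the numbers were not taken as pairs. All 85 genes matched RefSeq gene IDs.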

Additional observations from a re-analysis of the deposited data

Results flagged for a closer look

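For 19 entries the response to an addition differed between Kupffer cells and monocytic macrophages in the limma test of the difference itself, given as the Kupffer minus the monocytic response (log2) over 3 arrays per group. Up to 4 genes in each direction are listed per addition and time. With all arrays, only for HGF at 3 days was the share of subunits called above that of all genes, at 11.8% lower against 7.61%. For HGF at 1 day 8.24% of subunits were called higher, against 20.9% of all genes. For CD146 cells at 3 days 4.71% were called in each direction, against 9.64% higher and 8.54% lower. For Ito cells 2.35% were lower at 3 days, against 4.16%, and 1.18% higher at 1 day, against 1.85%. Without the 3 arrays 15.3% were lower for Ito cells at 3 days, against 6.41%, and 28.2% for HGF, against 10.1%. Of the 19 calls, 13 were lost under at least 1 alternative and 6 under none: Ndufa6 and Ndufc2 for HGF and Atp5g1, Cox7a2l and Ndufa6 for CD146 cells at 3 days, and Cox8c for HGF at 1 day.

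For HGF at 3 days all entries were lower in Kupffer cells: Ndufa6 at -2.07 ± 0.49 (SE, adjusted p = 0.00207), Ndufc2 at -1.80 (adjusted p = 0.00779), Ndufa3 at -1.65 (adjusted p = 0.0402) and Atp5l at -1.62 (adjusted p = 0.0436). The calls on Ndufa3 and Atp5l were lost under 9 and 10 alternatives. For Ito cells at 3 days they were Sdhb at -1.29 (adjusted p = 0.0261) and Cox5a at -1.15 (adjusted p = 0.0385), lost under 7 and 9 alternatives.

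For CD146 cells at 3 days 4 genes of 2 complexes were higher, namely Atp5g1 at 1.91 (adjusted p = 0.00819), Ndufs8 at 1.82 (adjusted p = 0.0409), Atp5b at 1.27 (adjusted p = 0.0261) and Atp5a1 at 1.00 (adjusted p = 0.0295). Cox7a2l at -2.16 (adjusted p = 0.0011), Ndufa6 at -1.82 (adjusted p = 0.00535), Ndufc2 at -1.57 (adjusted p = 0.0184) and Cox5a at -1.06 (adjusted p = 0.0356) were lower. The calls on Ndufs8 and Cox5a were each lost under 8 alternatives, that on Atp5a1 under 6, that on Atp5b under 4 and that on Ndufc2 under 2.

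At 1 day HGF gave Cox8c at 1.99 ± 0.42 (adjusted p = 0.000881), Atp5mpl at 1.75 (adjusted p = 0.0148), Atp5o at 1.57 (adjusted p = 0.00917) and Ndufa4l2 at 1.21 (adjusted p = 0.000789). Atp5mpl was 0.72 without the 3 arrays, with its call lost, as it was without replicate 1 of the Kupffer control alone (0.85), with median centring and with only the groups compared. The call on Atp5o was lost under the last 2 of these, and it was 1.04 without that replicate 1. The call on Ndufa4l2 was lost with quantile normalization. Cox8c and Ndufa4l2 lie below the negative control probes in every group. Ito cells at 1 day gave Ndufc2 at 1.85 (adjusted p = 0.0229), lost under 7 alternatives and 1.18 without the 3 arrays.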

How the results depend on the processing

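Of 100 named calls, 42 held under every alternative and 0 changed sign. The replicate block kept all 100 and moved no count past 1.5 times: 51 subunits were then called in Kupffer MCSF at 3 days against 1 day and 17 for HGF in monocytic macrophages at 3 days. Without the 3 arrays 18 named calls were lost, with only the groups compared 32, with quantile normalization 17, with median centring 15 and with trend and robust 1. With the dimmest genes left out 0 were lost of the 97 whose genes were still tested. The causes were not tested.

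Counts below are of all subunits called. Without the 3 arrays they were, at 3 days, 24 (HGF) and 25 (Ito) in Kupffer cells, 49, 33 and 1 (HGF, Ito, CD146) in monocytic macrophages, 35 for Kupffer over monocytic, 38 for monocytic MCSF over 1 day, and 24 and 13 for the response differences to HGF and Ito cells. At 1 day they were 1, 13 and 6 (HGF, Ito, CD146) in Kupffer cells, 14, 18 and 5 in monocytic macrophages, 11 for Kupffer over monocytic, and 1 each for the response differences to Ito and CD146 cells. The balance of higher and lower turned for all 3 additions in Kupffer cells and for Kupffer over monocytic at 1 day, for CD146 cells in monocytic macrophages at 3 days and for the Ito response difference at 1 day.

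With only the groups compared, Kupffer MCSF over 1 day gave 21, monocytic HGF and CD146 at 3 days 8 and 0, Kupffer HGF, Ito and CD146 at 1 day 0, 2 and 0, monocytic HGF, Ito and CD146 at 1 day 17, 21 (turned, 10 higher and 11 lower) and 7, Kupffer over monocytic at 1 day 0, and the response differences to HGF and Ito at 1 day 2 and 0. Quantile normalization gave 34 for Kupffer MCSF over 1 day, 16 for Kupffer HGF at 1 day, 3 (turned) for monocytic HGF at 1 day, 3 and 1 (turned) for the response differences to HGF and Ito at 1 day, and 6 and 4 for those at 3 days. Median centring gave 27 and 2 for Kupffer Ito and CD146 at 1 day, 5 (turned) for monocytic HGF at 1 day, 21 for Kupffer over monocytic at 1 day, and 5 (turned) and 2 for the response differences to HGF and Ito at 1 day. Leaving out the dimmest genes gave 2 for Kupffer CD146, 5 for monocytic HGF and 3 for the HGF response difference, all at 1 day. Trend and robust gave 0 for monocytic CD146 at 3 days.

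Leaving out 1 array at a time gave 31 to 57 for Kupffer and 17 to 25 for monocytic MCSF over 1 day, 2 to 11 and 1 to 20 for Kupffer over monocytic at 3 days and 1 day. At 3 days HGF, Ito and CD146 gave 11 to 16, 8 to 15 and 12 to 17 in Kupffer cells, 4 to 32, 2 to 17 and 0 to 2 in monocytic macrophages, and 4 to 11, 0 to 3 and 5 to 9 for the response differences. At 1 day they gave 5 to 16, 7 to 18 and 0 to 4, then 5 to 7, 2 to 6 and 0 to 0, then 5 to 14, 0 to 4 and 0 to 0.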
